A study of Mus musculus with 5 samples.

Results

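The transcriptome of Fos-/- mouse spleen cells infected with a virus labelled deltaNFAT was set against that of Fos+/+ mouse bone marrow cells, to list what stayed different from a Fos+/+ culture when deltaNFAT was supplied without Fos. The labels give 5 co-cultures, with 1 array each and no replicate. They are Fos-/- splenocytes expressing deltaNFAT, Fos-/- splenocytes expressing GFP (green fluorescent protein, carried by another virus), Fos-/- splenocytes without virus, Fos+/+ splenocytes without virus and Fos+/+ bone-marrow cells without virus. In every dish the blood-forming cells grew for 6 days on ST2-T stroma with dexamethasone and 1,25-dihydroxyvitaminD3, and cells of both kinds went into the RNA. The stroma therefore contributes RNA to each array and was not labelled as Fos-/-. The construct in the deltaNFAT virus is not described in the labels. Each array reported 12488 probe sets. The members are the 10833 probe sets that carry 1 gene symbol and are not among the 66 control probe sets, and they represent 8251 genes.

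Osteoclasts are the bone-resorbing cells of the monocyte and macrophage lineage. They form when the stromal ligand RANKL binds its receptor RANK on myeloid precursors in the presence of M-CSF. Fos, a subunit of the AP-1 transcription factor, is needed for this step, and mice without Fos lack osteoclasts but keep macrophages. AP-1 and calcium signalling through calcineurin raise and activate Nfatc1, a member of the NFAT family that turns on genes of bone resorption.

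Intensities were read on a linear scale with a floor of 20, and a gene was counted as lower or higher when the ratio of deltaNFAT over bone marrow reached 2-fold and the brighter array read at least 40. A fold written "at least" is a lower bound, used when the dimmer of the pair did not exceed the floor. Of 6188 probe sets bright enough, 534 (8.63%) were lower with deltaNFAT and 391 (6.32%) were higher. By gene, with the brightest probe set standing for each, 435 of 5279 genes (8.24%) were lower, 316 (5.99%) were higher and 4528 were neither. The other 2972 genes were too dim. Over all genes above the floor the median log2 ratio was -0.08, with quartiles of -0.44 and 0.26. When each array was scaled by its median, the split turned from 57.9% lower among the counted genes to 48.7%, and quantile normalization gave 48.3%, so the direction of the excess depended on the scaling. The median log2 ratio moved to 0.02 and -0.01 under these scalings. With 1 array a side there is no error to set these ratios against and no test was made. Tissue, genotype and virus all differ between the pair of arrays and cannot be told apart.

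**Figure D1:**
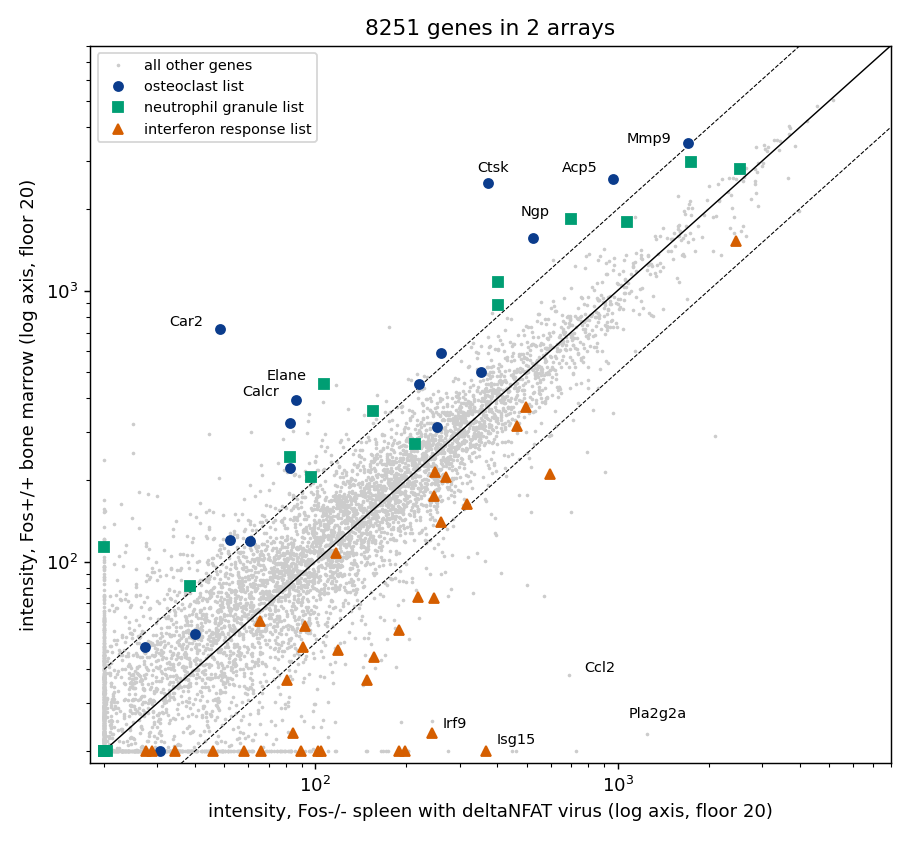
Intensity of 8251 genes with deltaNFAT (horizontal) and in Fos+/+ bone marrow (vertical), both on log axes with values under 20 drawn at 20. The solid line marks equal values and the dashed lines 2-fold, circles are the osteoclast list, squares the neutrophil list and triangles the interferon list. Ctsk, Car2 and Calcr lie above the upper dashed line, and Pla2g2a, Ccl2 and Isg15 lie below the lower one.

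Most osteoclast genes were below their bone marrow values. Of 24 listed genes 18 were on the array and 16 were bright enough, and 11 of these 16 were at least 2-fold lower with deltaNFAT, 0 were higher and 5 were neither. The background was 8.24% of all genes. At 3-fold the count was 4. The median log2 ratio of the list was -1.18. Ctsk encodes cathepsin K, the cysteine protease that degrades bone collagen. Its probe set read 372 with deltaNFAT, 79.3 with GFP and 61.3 in uninfected Fos-/- spleen, against 2862 in Fos+/+ spleen and 2495 in bone marrow. The 2 Fos+/+ arrays were high, the Fos-/- arrays without deltaNFAT were low, and deltaNFAT lay between them, 6.71-fold below bone marrow (log2 ratio -2.75). Acp5 encodes tartrate-resistant acid phosphatase, the classical osteoclast stain. Its intensity was 964 with deltaNFAT, 239 with GFP and 462 in uninfected Fos-/- spleen, against 3836 in Fos+/+ spleen and 2579.5 in bone marrow, again with deltaNFAT between the groups and 2.68-fold below bone marrow.

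Promoters of these 2 genes are printed because Ctsk and Acp5 are among the defining osteoclast markers and the question concerns NFAT and AP-1. Each runs from 250 bases before to 50 after the start site, is taken from RefSeq (GRCm38.p6) on the gene's strand, and carries in capitals each match to the NFAT core GGAAA or its reverse complement. The AP-1 site TGANTCA had no match in either. The promoter of Calcr, also a defining marker, is not printed. The Calcr promoter examined, 1 of 2 listed, had no match to GGAAA or TGANTCA on either strand. The Ctsk promoter lies at chr3:95498960-95499259 on the plus strand and the Acp5 promoter, 1 of 3 in the table, at chr9:22135697-22135996 on the minus strand.
Ctsk: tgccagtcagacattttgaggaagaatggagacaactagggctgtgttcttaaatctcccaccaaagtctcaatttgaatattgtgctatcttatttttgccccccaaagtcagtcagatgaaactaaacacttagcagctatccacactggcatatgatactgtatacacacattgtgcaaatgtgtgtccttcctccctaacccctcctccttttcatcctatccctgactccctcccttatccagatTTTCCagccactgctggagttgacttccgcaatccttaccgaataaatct
Acp5: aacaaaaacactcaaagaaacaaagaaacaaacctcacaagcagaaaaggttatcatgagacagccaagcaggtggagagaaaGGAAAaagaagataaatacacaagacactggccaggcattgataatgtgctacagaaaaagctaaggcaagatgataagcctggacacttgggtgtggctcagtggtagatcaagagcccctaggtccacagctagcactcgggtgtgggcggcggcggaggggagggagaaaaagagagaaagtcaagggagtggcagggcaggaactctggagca
The core match lies at position 1 in Ctsk and at -167 in Acp5, counted from the start site with no overlap with another motif searched. GGAAA or its reverse complement was present in 61.3% of all 32851 promoters of the table, in 8 of 13 promoters (61.5%) of the osteoclast genes counted lower, in 58.2% of those of all genes counted lower and in 61.5% of those of genes counted higher. TGANTCA was in 7.8% of all promoters, in 5.1% of those of lower genes, in 8.0% of those of higher genes and in 0 of the 13 osteoclast promoters. These matches describe the letters of the windows only.

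Genes of acid secretion and ion handling ranged widely. Car2, carbonic anhydrase II, supplies the protons of the resorption pit. It read 48.4 with deltaNFAT, 13.0 with GFP and 13.9 in uninfected Fos-/- spleen, against 971 in Fos+/+ spleen and 719 in bone marrow. This was the largest fold of all lower genes measured in both arrays, 14.8-fold, and deltaNFAT stood above the other Fos-/- arrays, both under the floor. Slc9b2, a sodium-proton exchanger of osteoclasts, read 52.2 with deltaNFAT, 7.8 with GFP and -1.7 in uninfected Fos-/- spleen, against 357 in Fos+/+ spleen and 120.3 in bone marrow, 2.30-fold below bone marrow. Tcirg1, the osteoclast a3 subunit of the proton pump, read 219.8 with deltaNFAT, 173 with GFP and 139.6 in uninfected Fos-/- spleen, against 914 in Fos+/+ spleen and 452 in bone marrow. Its 2.06-fold difference sat at the 2-fold line and was under it with median scaling (log2 ratio -0.94). Atp6v1c1 and the chloride-proton exchanger Clcn7 were nearer to bone marrow, at 1.42-fold and 1.25-fold lower.

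Receptors and the transcription factor also had both Fos+/+ arrays on top. Calcr, the calcitonin receptor, read 86.4 with deltaNFAT, -4.4 with GFP and -5.5 in uninfected Fos-/- spleen, against 337 in Fos+/+ spleen and 395 in bone marrow. Values below 0 are read here as not above background, so Calcr was measured above the floor in 1 of the 3 Fos-/- arrays, with deltaNFAT, 4.57-fold under bone marrow. Tnfrsf11a, which encodes RANK, read 82.7 with deltaNFAT, 53.7 with GFP and 72.9 in uninfected Fos-/- spleen, against 173 in Fos+/+ spleen and 221 in bone marrow. It was 2.67-fold lower, and all 3 Fos-/- arrays lay below both Fos+/+ arrays. Nfatc1 read 82.7 with deltaNFAT, 23.4 with GFP and 23.5 in uninfected Fos-/- spleen, against 752 in Fos+/+ spleen and 325 in bone marrow. With deltaNFAT it was 3.93-fold under bone marrow, and whether its probe set reads a viral transcript is not known. Ckb, the brain-type creatine kinase, read 524 with deltaNFAT, 203 with GFP and 448 in uninfected Fos-/- spleen, against 2784 in Fos+/+ spleen and 1559 in bone marrow, a 2.98-fold difference.

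Among genes of the matrix side and adhesion, Mmp9 and Itgav were lower by little more than 2-fold. Mmp9, gelatinase B, read 1714 with deltaNFAT, 1188 with GFP and 1047 in uninfected Fos-/- spleen, against 3759 in Fos+/+ spleen and 3504 in bone marrow. The 2.04-fold difference became a log2 ratio of -0.93 with median scaling, within the 2-fold line, while another probe set gave -1.37. Itgav, the alpha-v chain of the vitronectin receptor, read 261 with deltaNFAT, 222 with GFP and 264 in uninfected Fos-/- spleen, against 678 in Fos+/+ spleen and 588 in bone marrow. It was 2.26-fold lower by its brightest probe set, and another gave a log2 ratio of -0.46. Its partner Itgb3 was dim, 27.4 with deltaNFAT, against 48.2 in bone marrow, and counted as neither, as were Myo1d and Traf6, the adaptor of RANK. Src and Fosl1 were too dim to compare.

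**Figure D2:**
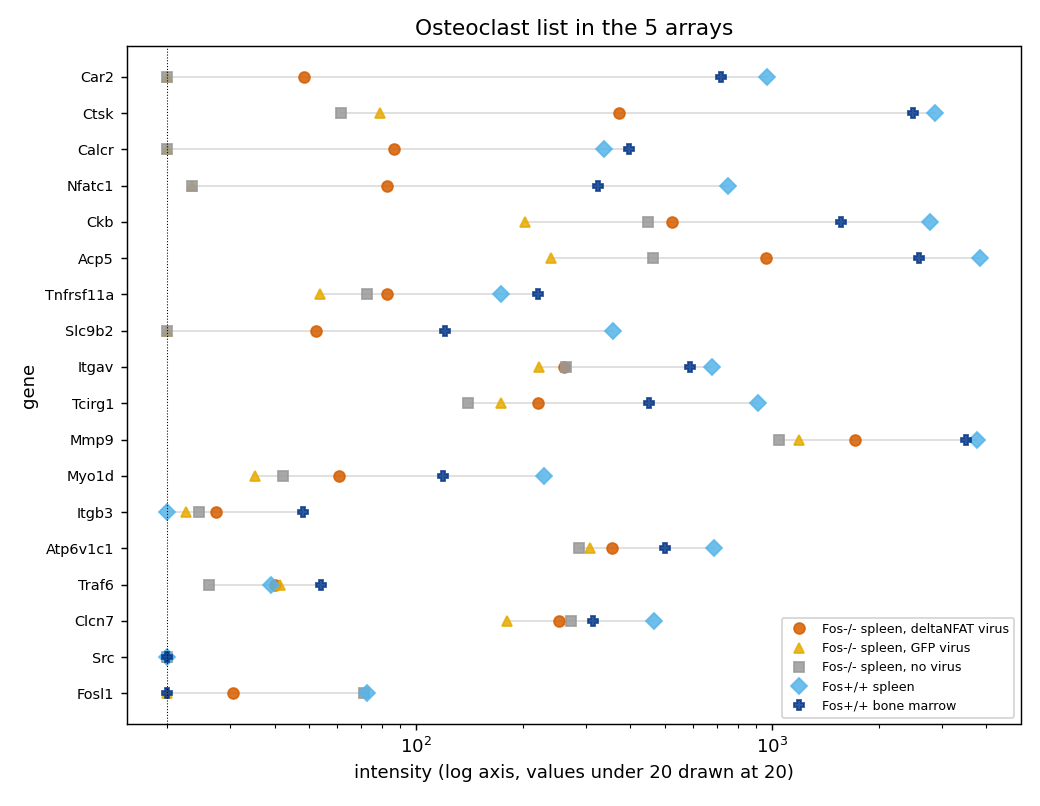
Intensity of the 18 osteoclast-list genes in each of the 5 arrays, on a log axis with values under 20 drawn at 20 (dotted line), sorted by the ratio of deltaNFAT over bone marrow. In the 11 genes counted lower, both Fos+/+ arrays lie above all 3 Fos-/- arrays, and deltaNFAT lies above GFP.

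Taken as a percentage of the bone marrow value, the 11 genes counted lower stood at a median of 37.4% with deltaNFAT (6.7 to 48.9%), 13.0% with GFP and 17.9% in uninfected Fos-/- spleen, against 135.1% in Fos+/+ spleen. The choice of genes below bone marrow fixes the upper end of the deltaNFAT range. It does not fix the values of the other arrays, but all these percentages divide by the bone marrow array that chose the genes. In all 11 the 2 Fos+/+ arrays read at least 2-fold above all 3 Fos-/- arrays, a pattern met by 49 of the 435 lower genes (11.3%). The deltaNFAT array exceeded GFP in all 11 and exceeded both other Fos-/- arrays in 10, the exception being Itgav. These counts take any margin. It was large in Ctsk (372 with deltaNFAT, 79.3 with GFP). It was small in Tnfrsf11a (82.7 with deltaNFAT, 72.9 in uninfected Fos-/- spleen) and Ckb (524 with deltaNFAT, 448 in uninfected Fos-/- spleen). The same orders were not counted over all 435 lower genes. The summed intensity of the 18 osteoclast genes was 5171 with deltaNFAT, against 14000.2 in bone marrow. The sum over 34 macrophage genes was 31295 with deltaNFAT, against 24336 in bone marrow, and over 48 stromal genes 27943 with deltaNFAT, against 26189 in bone marrow. In RNA of whole dishes, fewer osteoclasts and less RNA per osteoclast cannot be told apart.

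Lower genes outside the core list included further genes known from osteoclasts. Gpr137b, a lysosomal membrane protein, read 44.5 with deltaNFAT, 7.5 with GFP and 30.3 in uninfected Fos-/- spleen, against 593 in Fos+/+ spleen and 295 in bone marrow. It was 6.62-fold below bone marrow, and the near copy Gpr137b-ps, chosen after its values were seen, was 2.32-fold lower. Signal of such near-identical genes may be shared between their probe sets. Cd200, a surface glycoprotein linked to myeloid cell fusion, read 48.1 with deltaNFAT, 23.9 with GFP and 30.6 in uninfected Fos-/- spleen, against 214 in Fos+/+ spleen and 111 in bone marrow, 2.30-fold lower. Blnk, an adaptor of ITAM signalling (phosphorylated receptor tails), read 19.3 with deltaNFAT, 24.5 with GFP and 24.0 in uninfected Fos-/- spleen, against 152 in Fos+/+ spleen and 72.9 in bone marrow, at least 3.64-fold lower. Of 15 bright genes in that adaptor and fusion list 3 were lower (20%, against 8.24% of all genes) and 1 (6.7%, against 5.99%), the tetraspanin Cd9, was higher at 594 with deltaNFAT, against 290.4 in bone marrow.

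The proton pump as a whole differed less. Of 15 V-ATPase genes bright enough 2 were lower (13.3%, against 8.24% of all genes), 0 were higher, and 12 of the 15 had ratios below 1, with a median log2 ratio of -0.43. Atp6v1a, a catalytic subunit, read 613 with deltaNFAT, 657 with GFP and 471 in uninfected Fos-/- spleen, against 1161 in Fos+/+ spleen and 1299.8 in bone marrow and was 2.12-fold lower, though its 2 other probe sets gave log2 ratios of -0.59 and -0.77. The list count was 0 with median scaling. Among 20 bright genes of RANK, M-CSF and NF-kB signalling 3 were lower (15%, against 8.24%) and 0 higher (median -0.36). They were Tnfrsf11a, the receptor adaptor Traf1 and the transcription factor Mitf, and the last 2 had bone marrow intensities of 52.9 and 40.6 and were at the floor with deltaNFAT.

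Dcn gave the second largest fold among lower genes measured in both arrays. It encodes decorin, a small leucine-rich proteoglycan of connective tissue, and read 24.9 with deltaNFAT, 11.3 with GFP and 14.1 in uninfected Fos-/- spleen, against 319.7 in Fos+/+ spleen and 321 in bone marrow. The 2 Fos+/+ arrays were nearly equal and all 3 Fos-/- arrays were near the floor, so that deltaNFAT was 12.9-fold below bone marrow. The relative Ogn (osteoglycin) did not share this order. It read 1572 with deltaNFAT, 1667 with GFP and 99.1 in uninfected Fos-/- spleen, against 62.1 in Fos+/+ spleen and 1111 in bone marrow, with the 2 uninfected spleen arrays low, and was counted as neither. Of the 5 proteoglycan genes bright enough Dcn was the 1 counted (20%, against 8.24% of all genes lower). Mst1r, the receptor tyrosine kinase RON, and Slc44a1, a choline transporter, were split by genotype as Dcn was. Mst1r read 4.5 with deltaNFAT, 15.8 with GFP and 23.5 in uninfected Fos-/- spleen, against 139 in Fos+/+ spleen and 168 in bone marrow, at least 8.41-fold lower. Slc44a1 read 22.8 with deltaNFAT, 27.7 with GFP and 21.2 in uninfected Fos-/- spleen, against 133 in Fos+/+ spleen and 163 in bone marrow, 7.13-fold lower.

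Several of the largest folds had other orders. Aldh1a7, an aldehyde dehydrogenase, read 24.9 with deltaNFAT, 33.0 with GFP and 150.1 in uninfected Fos-/- spleen, against 96.2 in Fos+/+ spleen and 250.9 in bone marrow, so both virus arrays were low. Tomm34, a mitochondrial import factor, read 28.0 with deltaNFAT, 17.5 with GFP and 119.7 in uninfected Fos-/- spleen, against 264 in Fos+/+ spleen and 178 in bone marrow, also low in both. Hoxa4, a homeobox gene, read 16.3 with deltaNFAT, 188 with GFP and 244 in uninfected Fos-/- spleen, against 235 in Fos+/+ spleen and 237 in bone marrow. It was low in the deltaNFAT array alone, at least 11.8-fold under bone marrow by its brightest probe set. Another probe set of Hoxa4 read 35.2 with deltaNFAT, against 72.7 in bone marrow (log2 ratio -1.05), and the rest were under the floor in both arrays. The small-subunit ribosomal gene Rps29 was low in the deltaNFAT array too, 29.9 with deltaNFAT, against 174 in bone marrow, but another probe set of it gave a log2 ratio of 1.22 in the opposite direction. Ldb2, a LIM-domain cofactor, read 61.4 with deltaNFAT, 154 with GFP and 132 in uninfected Fos-/- spleen, against 96.0 in Fos+/+ spleen and 299.7 in bone marrow and Hlx, a homeobox gene, 23.6 with deltaNFAT, against 115 in bone marrow, both with bone marrow highest. The other genes named by size, Krt12, Glod4, Pmm1, Nup85, Cyp1a1, Psmg3, Ctrb1, Ddx56, Mest, Atp4a and Il6ra, read at most 26.1 with deltaNFAT, against 119.6 to 180.9 in bone marrow. The other probe set of Nup85 gave a log2 ratio of -0.27.

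Of 30 cell cycle genes bright enough 14 were lower with deltaNFAT (46.7%, against 8.24% of all genes), 0 were higher and 16 were neither (median log2 ratio -0.85). Birc5, the survivin subunit of the chromosomal passenger complex, read 39.0 with deltaNFAT, 42.6 with GFP and 46.7 in uninfected Fos-/- spleen, against 158 in Fos+/+ spleen and 118 in bone marrow. Mki67, the proliferation antigen Ki-67, read 36.6 with deltaNFAT, 33.0 with GFP and 37.0 in uninfected Fos-/- spleen, against 45.3 in Fos+/+ spleen and 107 in bone marrow. Bone marrow stood out in Mki67, while both Fos+/+ arrays stood out in Birc5. Mcm7, a subunit of the replicative helicase, read 34.8 with deltaNFAT, 42.7 with GFP and 50.6 in uninfected Fos-/- spleen, against 118 in Fos+/+ spleen and 92.9 in bone marrow, 2.67-fold lower. In all 14 genes both Fos+/+ arrays exceeded all 3 Fos-/- arrays, and in 9 of the 14 deltaNFAT exceeded GFP. The choice of genes fixes bone marrow above deltaNFAT in this order. With gaps of at least 2-fold, both Fos+/+ arrays stood above all 3 Fos-/- arrays in 6 of the 14, a pattern given to 49 of the 435 lower genes (11.3%). Most intensities of the 14 genes were low. The count of lower cell cycle genes was 9 with median scaling, 3 with a floor of 100 and 3 at 3-fold. Mcm5 was 2.28-fold lower by its brightest probe set and had a log2 ratio of -0.59 by the other. Nek2, a centrosome kinase, read 49.7 with deltaNFAT, against 112 in bone marrow and was lower. The replication clamp Pcna read 408 with deltaNFAT, against 459 in bone marrow, the kinase Cdk4 619 with deltaNFAT, against 509 in bone marrow and the cyclin Ccnd1 183 with deltaNFAT, against 182 in bone marrow, and these 3, chosen after their values were seen, were neither. Whether the dividing cells were blood cells or stroma was not measured.

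Of 13 neutrophil genes bright enough 9 were lower with deltaNFAT than in bone marrow (69.2%, against 8.24% of all genes), 0 were higher, and the median log2 ratio was -1.11. Elane, neutrophil elastase of early granules, read 107 with deltaNFAT, 116 with GFP and 115 in uninfected Fos-/- spleen, against 109 in Fos+/+ spleen and 453 in bone marrow. Bone marrow stood 4.24-fold above deltaNFAT and the 4 spleen arrays were alike. Mpo, myeloperoxidase, read 82.5 with deltaNFAT, 79.5 with GFP and -1.5 in uninfected Fos-/- spleen, against 9.1 in Fos+/+ spleen and 243 in bone marrow, also with bone marrow highest. Ngp, a granule protein of later neutrophil stages, read 701 with deltaNFAT, 1165 with GFP and 540.3 in uninfected Fos-/- spleen, against 61.5 in Fos+/+ spleen and 1835 in bone marrow. There Fos+/+ spleen was lowest, and the 3 Fos-/- arrays lay between it and bone marrow. Camp, the cathelicidin precursor, read 401 with deltaNFAT, 639 with GFP and 384 in uninfected Fos-/- spleen, against 195 in Fos+/+ spleen and 1078 in bone marrow, in the same order as Ngp. Bone marrow was highest in all 9 genes counted, and deltaNFAT was above GFP in 2 of the 9. The choice of genes lower than bone marrow fixes bone marrow above deltaNFAT, but not its place against the other arrays. With gaps of at least 2-fold, bone marrow alone was high in 4 of the 9, a pattern given to 54 of the 435 lower genes (12.4%). At a threshold of 3-fold 2 neutrophil genes were counted lower. The summed intensity of the 17 neutrophil genes on the array was 7621 with deltaNFAT, 9819 with GFP and 4688 in uninfected Fos-/- spleen, against 2381 in Fos+/+ spleen and 13120.0 in bone marrow. In 4 bright genes, S100a8, S100a9, Chil3 and Csf3r, the difference was under 2-fold. Csf3r, the receptor for the granulocyte growth factor G-CSF, read 214 with deltaNFAT, 329 with GFP and 252 in uninfected Fos-/- spleen, against 323 in Fos+/+ spleen and 272 in bone marrow, with GFP highest. Lcn2, lipocalin 2, read 402 with deltaNFAT, against 885 in bone marrow, and the integrin chain gene Itgb2l was at the floor with deltaNFAT, against 113 in bone marrow, both lower. The other probe set of Lcn2 gave a log2 ratio of -0.77, within the 2-fold line.

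Markers of other cell types that marrow can hold were compared in the same way. Of 13 bright B cell genes 6 were lower (46.2%, against 8.24% of all genes) and 0 higher (median log2 ratio -0.51, or -0.14 with the mean over each gene's probe sets). Cd79b, a signalling chain of the B cell receptor, read 44.6 with deltaNFAT, 27.5 with GFP and 108 in uninfected Fos-/- spleen, against 116 in Fos+/+ spleen and 131 in bone marrow, and Fcer2a, the low-affinity IgE receptor, read 33.8 with deltaNFAT, against 124 in bone marrow. Ebf1, a transcription factor of B cells and adipocytes, read 39.8 with deltaNFAT, against 83.9 in bone marrow. Of 14 B cell list members above the floor 9 had ratios below 1 and 5 above. The brighter members Cd24a (536 with deltaNFAT, against 384.5 in bone marrow) and Pax5 (248 with deltaNFAT, against 294 in bone marrow) were neither. The sum over 20 B cell genes was 1538 with deltaNFAT, against 1730.4 in bone marrow, and with a floor of 100 the count of lower genes was 0. Of 6 bright endothelial genes 3 were lower (50%, against 8.24%). Eng, a co-receptor of TGF-beta signalling, read 29.2 with deltaNFAT, against 91.8 in bone marrow. The defining marker Pecam1 was under the floor in both arrays. The other defining marker, Cdh5, was counted lower, at 3.1 with deltaNFAT, against 46.3 in bone marrow, and was above the floor in bone marrow alone. The T cell markers Cd3e, Cd3g and Cd8a, the erythroid enzyme gene Alas2, the platelet gene Pf4 and the mast cell gene Cpa3 were under the floor in all 5 arrays. Other members of their lists were above the floor in all 5. The T cell co-receptor gene Cd4 read 91.0 with deltaNFAT, 134 with GFP and 167 in uninfected Fos-/- spleen, against 25.0 in Fos+/+ spleen and 129 in bone marrow, and the adaptor gene Lat 156 with deltaNFAT, against 202 in bone marrow, both neither. The erythroid transcription factor gene Klf1 read 310.4 with deltaNFAT, against 346 in bone marrow, the transferrin receptor gene Tfrc 866 with deltaNFAT, against 926 in bone marrow, the platelet glycoprotein gene Gp9 102 with deltaNFAT, against 164 in bone marrow and the thrombin receptor gene F2r 1273 with deltaNFAT, against 829 in bone marrow, all neither by the brightest probe set. The other probe sets of F2r were higher, with log2 ratios of 1.17 and 1.07. Erythroid genes counted 2 lower (22.2%) and 1 higher (11.1%) of 9. T and NK cell genes counted 1 lower of 5 (20%), Klrd1 at 43.3 with deltaNFAT, against 90.8 in bone marrow. Mast cell, basophil and eosinophil genes counted 2 lower (40%) and 1 higher (20%) of 5. The mast cell protease gene Mcpt1 read 92.1 with deltaNFAT, 62.3 with GFP and 56.8 in uninfected Fos-/- spleen, against 250.8 in Fos+/+ spleen and 217 in bone marrow, high in both Fos+/+ arrays. Platelet genes counted 1 higher of 5 (20%). With 5 to 9 bright genes a list, 1 gene moves these shares by more than the 8.24% and 5.99% of all genes. Fabp4, a fatty-acid binding protein of adipocytes, read 47.9 with deltaNFAT, 48.8 with GFP and 36.1 in uninfected Fos-/- spleen, against 94.7 in Fos+/+ spleen and 203 in bone marrow, 4.25-fold lower. Of 15 bright adipocyte genes 3 were lower (20%, against 8.24%) and 0 higher, and the median log2 ratio was -0.17. Of 16 adipocyte genes above the floor 10 had ratios below 1 and 6 above, among the latter Fasn at 114 with deltaNFAT, against 57.8 in bone marrow. The part of these cells in the other differences was not tested.

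Pla2g2a encodes a secreted phospholipase A2. It read 1247 with deltaNFAT, 17.1 with GFP and 23.6 in uninfected Fos-/- spleen, against 20.9 in Fos+/+ spleen and 23.0 in bone marrow. The 4 other arrays read 17.1 to 23.6, close to the floor, and deltaNFAT was 54.2-fold above bone marrow (log2 ratio 5.76), the largest fold of all genes measured in both arrays. Agt, angiotensinogen, read 463 with deltaNFAT, 5.7 with GFP and 2.5 in uninfected Fos-/- spleen, against -47.0 in Fos+/+ spleen and -70.1 in bone marrow, at least 23.1-fold higher with deltaNFAT and under the floor elsewhere. Saa3, a serum amyloid A protein, read 704 with deltaNFAT, 159 with GFP and 90.9 in uninfected Fos-/- spleen, against 272 in Fos+/+ spleen and 152 in bone marrow, 4.62-fold higher. Another phospholipase, Pla2g5, read 192 with deltaNFAT, 160.3 with GFP and 53.1 in uninfected Fos-/- spleen, against 79.9 in Fos+/+ spleen and 25.6 in bone marrow, with GFP also high. Of 10 bright genes in the acute phase and complement list 3 were higher and 3 lower (30.0% each, against 5.99% and 8.24% of all genes). The higher ones were Pla2g2a, Agt and Saa3. The lower ones included Orm2, an acid glycoprotein, at 13.5 with deltaNFAT, against 93.6 in bone marrow, and Lcn2.

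Collagen-degrading metalloproteinases were split. Mmp13, collagenase 3, read 2107 with deltaNFAT, 293 with GFP and 106 in uninfected Fos-/- spleen, against 209.7 in Fos+/+ spleen and 291 in bone marrow, 7.25-fold higher with deltaNFAT. Mmp3, stromelysin, read 148 with deltaNFAT, 9.3 with GFP and 13.7 in uninfected Fos-/- spleen, against 3.9 in Fos+/+ spleen and 19.9 in bone marrow, at least 7.41-fold higher. Both were high in the deltaNFAT array alone, in contrast to Mmp9, which was lower. Of 16 bright genes of the family and its inhibitors 2 were higher and 2 lower (12.5% each, median 0.07). The shares of all genes were 5.99% and 8.24%.

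Of 16 bright genes of chemokines and inflammatory cytokines 7 were higher (43.8%, against 5.99% of all genes), 0 lower and 9 neither. Their median log2 ratio was 0.46. Ccl2 attracts monocytes, and it read 693 with deltaNFAT, 193 with GFP and 70.1 in uninfected Fos-/- spleen, against 51.3 in Fos+/+ spleen and 38.0 in bone marrow. It was 18.2-fold above bone marrow, with GFP next. Of the other CC chemokines, Ccl7 read 360.4 with deltaNFAT, 82.9 with GFP and 31.1 in uninfected Fos-/- spleen, against 15.3 in Fos+/+ spleen and 14.2 in bone marrow, at least 18.02-fold higher. Ccl8 read 171 with deltaNFAT, 55.2 with GFP and -22.1 in uninfected Fos-/- spleen, against 30.8 in Fos+/+ spleen and -5.8 in bone marrow, at least 8.54-fold higher. Ccl12 read 165 with deltaNFAT, 11.6 with GFP and -18.4 in uninfected Fos-/- spleen, against -28.9 in Fos+/+ spleen and -68.5 in bone marrow, at least 8.25-fold higher and above the floor with deltaNFAT alone. Ccl6, whose GFP value was lower than that of Fos-/- spleen without virus, read 150.1 with deltaNFAT, 50.2 with GFP and 98.9 in uninfected Fos-/- spleen, against 31.1 in Fos+/+ spleen and 54.3 in bone marrow. The deltaNFAT array was the highest of the 5 in 6 of the 7 genes, all of which were chosen for deltaNFAT above bone marrow. The exception was Il18, chosen after its values were seen, at 62.4 with deltaNFAT, 84.8 with GFP and 53.5 in uninfected Fos-/- spleen, against -2.2 in Fos+/+ spleen and 22.0 in bone marrow. Genes counted as neither, also chosen after their values were seen, included brighter ones with ratios below 1. The CC chemokine Ccl9 read 1343 with deltaNFAT, 967 with GFP and 927 in uninfected Fos-/- spleen, against 2171 in Fos+/+ spleen and 1554 in bone marrow, highest in Fos+/+ spleen. Cxcl12, a stromal attractant of blood cell precursors, read 1598 with deltaNFAT, against 1748 in bone marrow, and Cxcl13, a B cell attractant, read 917 with deltaNFAT, against 1155 in bone marrow.

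Of the lists compared, the interferon response held the most higher genes. Of 31 bright enough 19 were higher (61.3%, against 5.99%) and 0 were lower, and all 34 on the array had ratios above 1, with a median log2 ratio of 1.27. In all 19 genes the deltaNFAT array was the highest and the GFP array the next, both above all 3 uninfected arrays, though Psmb9 read 53.8 with GFP and 53.2 in Fos+/+ spleen. The choice of genes higher than bone marrow fixes deltaNFAT above bone marrow in this order. With gaps of at least 2-fold, both virus arrays stood above the 3 uninfected arrays in 10 of the 19, a pattern given to 37 of the 316 higher genes (11.7%). Isg15, a ubiquitin-like modifier, read 367 with deltaNFAT, 143 with GFP and -62.8 in uninfected Fos-/- spleen, against -2.1 in Fos+/+ spleen and -48.4 in bone marrow, at least 18.4-fold higher. Irf9, the DNA-binding subunit of the interferon-activated complex ISGF3, read 243 with deltaNFAT, 232 with GFP and 98.8 in uninfected Fos-/- spleen, against 86.6 in Fos+/+ spleen and 23.2 in bone marrow, 10.5-fold higher with the virus arrays nearly equal. Ifit1, which binds foreign RNA ends, read 189 with deltaNFAT, 65.4 with GFP and -5.4 in uninfected Fos-/- spleen, against -2.4 in Fos+/+ spleen and -25.0 in bone marrow, at least 9.46-fold higher. Ifit3 read 105 with deltaNFAT, 39.9 with GFP and 0.2 in uninfected Fos-/- spleen, against 8.5 in Fos+/+ spleen and -14.4 in bone marrow, and the GTPase Iigp1 read 199 with deltaNFAT, 109 with GFP and -12.4 in uninfected Fos-/- spleen, against -8.3 in Fos+/+ spleen and 19.5 in bone marrow. Ifi27l2a, another gene known for its response to interferon, read 573 with deltaNFAT, 381 with GFP and 238 in uninfected Fos-/- spleen, against 128 in Fos+/+ spleen and 74.9 in bone marrow, 7.65-fold higher. The summed intensity of the 34 genes was 8528 with deltaNFAT, 7048 with GFP and 3969 in uninfected Fos-/- spleen, against 3852 in Fos+/+ spleen and 4051 in bone marrow. The GFP dish was infected too, and the part of infection in these differences was not tested. Members of the Ifit, Irgm and Oas families are similar in sequence, and their probe sets may share signal.

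Windows of 6 promoters are shown because the core of the interferon-stimulated response element, GAAA followed by any 2 bases and GAAA again, recurs in this group. The genes Gbp3, Irgm1 and Irgm2, interferon-induced GTPases, and the motif were chosen after the values were seen. Capitals mark the matches on either strand, and each line runs along the gene's strand.
Isg15: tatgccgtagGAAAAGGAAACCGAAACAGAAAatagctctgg
Irgm1: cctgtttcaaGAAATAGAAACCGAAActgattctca
Gbp3: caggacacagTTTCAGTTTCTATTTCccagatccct
Ifit1: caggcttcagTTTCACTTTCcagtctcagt
Ifit3: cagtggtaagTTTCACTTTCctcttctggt
Irgm2: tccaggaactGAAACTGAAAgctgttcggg
In RefSeq coordinates (GRCm38.p6) these are the Isg15 window at chr4:156200865-156200906 (minus strand), the Irgm1 window at chr11:48871425-48871460 (minus strand) and the Gbp3 window at chr3:142559989-142560024 (plus strand). They are also the Ifit1 window at chr19:34640775-34640804 (plus strand), the Ifit3 window at chr19:34583363-34583392 (plus strand) and the Irgm2 window at chr11:58214903-58214932 (plus strand). The windows hold 3 overlapping matches in Isg15, 2 each in Irgm1 and Gbp3 and 1 each in the others. The core was present in 11 of 18 promoters (61.1%) of the interferon genes counted higher, covering 10 of the 15 genes found in the table. It was in 22 of 301 promoters (7.3%) of all higher genes, and these 22 include the 11. The share was 2.1% for promoters of lower genes and 3.4% for all 32851 promoters. GGAAA can lie inside this core, as it does in Isg15. GGAAA or its reverse complement was in 15 of the same 18 promoters (83.3%, against 61.3% of all promoters). TGANTCA was in 5 of the 18 (27.8%, against 7.8% of all promoters).

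**Figure D3:**
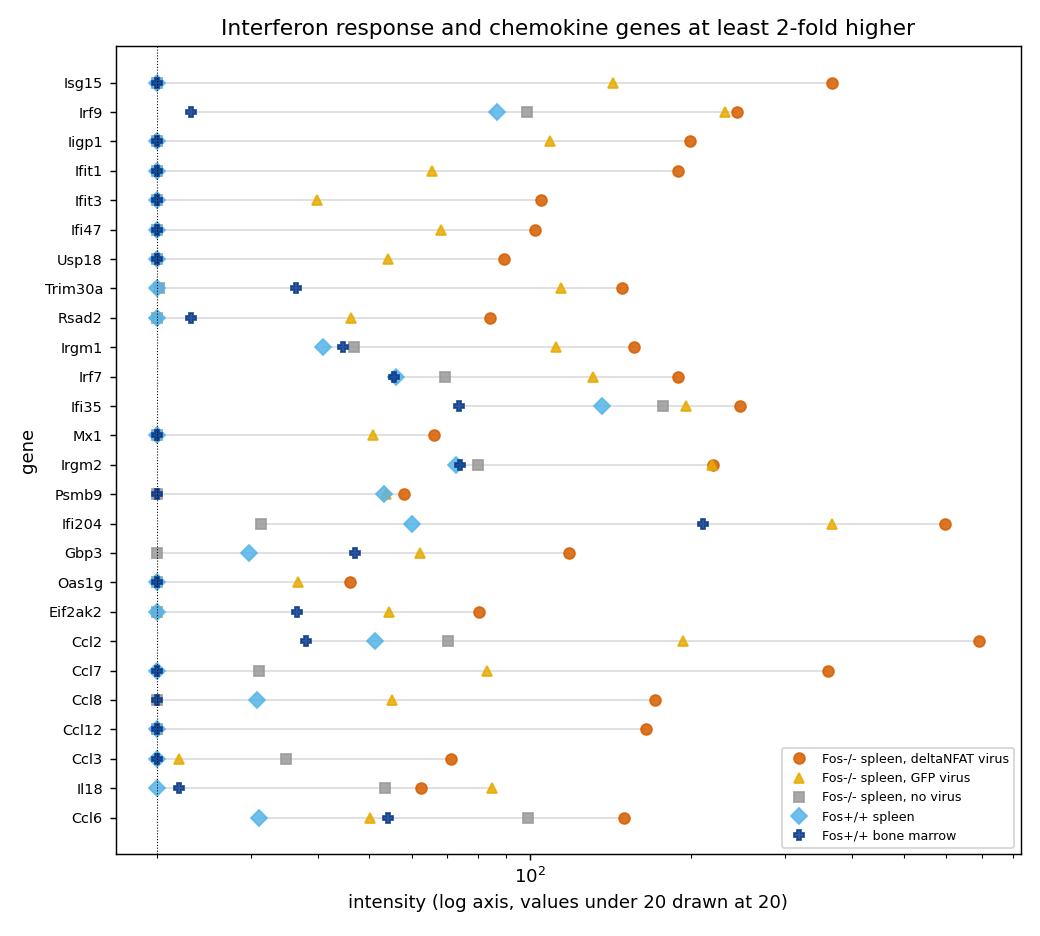
Intensity in each of the 5 arrays of the 19 interferon-list genes and, below them, the 7 chemokine-list genes counted higher, on a log axis with values under 20 drawn at 20 (dotted line). In all 19 interferon genes deltaNFAT lies furthest right and GFP next, and in 6 of the 7 chemokine-list genes deltaNFAT lies furthest right.

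Another group of higher genes read about as high, or higher, with GFP. Inmt, indolethylamine N-methyltransferase, read 729.5 with deltaNFAT, 1277 with GFP and 21.7 in uninfected Fos-/- spleen, against 10.8 in Fos+/+ spleen and 5.7 in bone marrow. It was at least 36.5-fold above bone marrow. The immunoglobulin light-chain gene Igkv6-23 read 447 with deltaNFAT, 859.9 with GFP and 51.4 in uninfected Fos-/- spleen, against 47.0 in Fos+/+ spleen and 10.5 in bone marrow, at least 22.4-fold higher. Alas1, the first enzyme of haem synthesis in most cells, read 962 with deltaNFAT, 1104 with GFP and 321 in uninfected Fos-/- spleen, against 404 in Fos+/+ spleen and 353 in bone marrow. It was 2.72-fold higher and the 1 of 18 bright iron and haem genes counted (5.6%, against 5.99% of all genes higher). Rnase4, a secreted ribonuclease, read 500.2 with deltaNFAT, 443 with GFP and 174 in uninfected Fos-/- spleen, against 27.9 in Fos+/+ spleen and 81.9 in bone marrow, with all 3 Fos-/- arrays above both Fos+/+ arrays. Egr1, an immediate early transcription factor, read 410.1 with deltaNFAT, 406 with GFP and 171 in uninfected Fos-/- spleen, against 263 in Fos+/+ spleen and 90.4 in bone marrow, 4.54-fold higher.

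Smarcb1, a subunit of the SWI/SNF chromatin remodelling complex, was low in the bone marrow array alone. It read 274 with deltaNFAT, 285 with GFP and 277 in uninfected Fos-/- spleen, against 286 in Fos+/+ spleen and 17.3 in bone marrow, at least 13.7-fold higher with deltaNFAT. H2-D4, a class I histocompatibility gene, read 244 with deltaNFAT, 190.3 with GFP and 96.5 in uninfected Fos-/- spleen, against 142 in Fos+/+ spleen and 25.7 in bone marrow, 9.47-fold higher, and it too was lowest in bone marrow. Pigs, Nkiras2 and Napsa read 98.0 to 116.1 with deltaNFAT, against 20.3 to 25.5 in bone marrow. With GFP, Pigs read 25.4 and Nkiras2 50.2, so in these genes bone marrow was not the only low array. Dio2, the deiodinase that activates thyroid hormone, read 184 with deltaNFAT, 109.6 with GFP and 10.6 in uninfected Fos-/- spleen, against 14.5 in Fos+/+ spleen and 40.8 in bone marrow. Gm9706, a predicted gene without a role given here, read 202 with deltaNFAT and 87.3 with GFP. It was under the floor in bone marrow and in both uninfected spleen arrays.

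Macrophage genes were in part higher. Of 31 bright enough 9 were higher (29.0%, against 5.99%) and 0 lower (median log2 ratio 0.43), and 4 were higher at 3-fold. Fcgr2b, the inhibitory receptor for IgG, read 203 with deltaNFAT, 85.3 with GFP and 28.0 in uninfected Fos-/- spleen, against 18.9 in Fos+/+ spleen and 12.8 in bone marrow, at least 10.1-fold higher. Fcgr1, the high-affinity receptor, read 394 with deltaNFAT, 299.9 with GFP and 267 in uninfected Fos-/- spleen, against 229 in Fos+/+ spleen and 128 in bone marrow, 3.08-fold higher. Cd5l, a secreted macrophage protein, read 321 with deltaNFAT, 379 with GFP and 649 in uninfected Fos-/- spleen, against 352 in Fos+/+ spleen and 104 in bone marrow, and here deltaNFAT was the lowest of the spleen arrays and bone marrow the lowest of all. Ccr1, a chemokine receptor of monocytes, read 81.2 with deltaNFAT, 19.0 with GFP and 18.8 in uninfected Fos-/- spleen, against 2.8 in Fos+/+ spleen and -4.6 in bone marrow, at least 4.06-fold higher. The general macrophage markers differed by less, with Csf1r at 1291 with deltaNFAT, against 1255 in bone marrow, Adgre1 at 557 with deltaNFAT, against 401 in bone marrow and Cd68 at 1070.2 with deltaNFAT, against 1352 in bone marrow.

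Of 19 class II and dendritic cell genes on the array 8 were bright enough, and 3 of the 8 were higher (37.5%, against 5.99% of all genes) and 0 lower. The median log2 ratio of the list was -0.04, and of 11 members above the floor 7 had ratios below 1 and 4 above. The class II chain genes H2-Aa and H2-Ab1 were under the floor in all 5 arrays. Cd74, the invariant chain, read 332 with deltaNFAT, 92.9 with GFP and 97.5 in uninfected Fos-/- spleen, against 69.1 in Fos+/+ spleen and 76.4 in bone marrow, 4.34-fold higher with deltaNFAT alone high. H2-DMa, a peptide-loading chain, read 96.0 with deltaNFAT, 1.4 with GFP and 133 in uninfected Fos-/- spleen, against -25.4 in Fos+/+ spleen and -54.3 in bone marrow, at least 4.80-fold higher, with Fos-/- spleen highest. H2-Oa, a chain that regulates this loading, read 149 with deltaNFAT, 74.5 with GFP and 139.5 in uninfected Fos-/- spleen, against 138 in Fos+/+ spleen and 52.0 in bone marrow, 2.86-fold higher with bone marrow lowest. H2-Eb1, a class II beta chain, read 54.7 with deltaNFAT, against 94.9 in bone marrow and was counted as neither.

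Few genes of the stroma or of basic metabolism were counted. Of 42 bright stromal and matrix genes 2 were lower (4.8%, against 8.24% of all genes) and 0 higher (median log2 ratio -0.15). Col1a1, the alpha-1 chain of type I collagen, read 3853 with deltaNFAT, 4186 with GFP and 3778 in uninfected Fos-/- spleen, against 3861 in Fos+/+ spleen and 3417 in bone marrow. The 2 counted were Cdh11, an adhesion gene of mesenchyme at 25.4 with deltaNFAT, against 75.3 in bone marrow, and Pdgfrb, a growth factor receptor at 85.4 with deltaNFAT, against 173 in bone marrow. None of 44 oxidative phosphorylation genes and none of 15 glycolysis genes was counted in either direction, with median log2 ratios of -0.16 and 0.06. The 18 genes of the glucocorticoid, metallothionein and vitamin D list also gave 0 in either direction, with a median of -0.01. Of 24 ribosomal protein genes 2 were lower (8.3%, against 8.24% of all genes), Rps29 and Rps13 at 159 with deltaNFAT, against 335 in bone marrow, and the median was -0.07.

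Of the AP-1 genes 8 were bright, 0 were lower (against 8.24% of all genes) and 1 was higher (12.5%, against 5.99%), with a median of -0.09. Fos itself read 581 with deltaNFAT, 607 with GFP and 426 in uninfected Fos-/- spleen, against 849 in Fos+/+ spleen and 614 in bone marrow. It was alike in the 2 arrays compared, and since the stroma is not labelled Fos-/- and the place of the probes relative to the deletion is not known, it does not check the genotype. Jun, the partner of Fos, read 89.4 with deltaNFAT, 78.5 with GFP and 104 in uninfected Fos-/- spleen, against 93.2 in Fos+/+ spleen and 27.0 in bone marrow, 3.31-fold higher, with bone marrow the lowest array. Of the 9 bright NFAT and calcineurin genes Nfatc1 alone was counted (11.1%, against 8.24% of all genes lower). Rcan1, a calcineurin regulator chosen after its values were seen, read 209 with deltaNFAT, 96.6 with GFP and 201 in uninfected Fos-/- spleen, against 309.5 in Fos+/+ spleen and 158 in bone marrow.

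**Figure D4:**
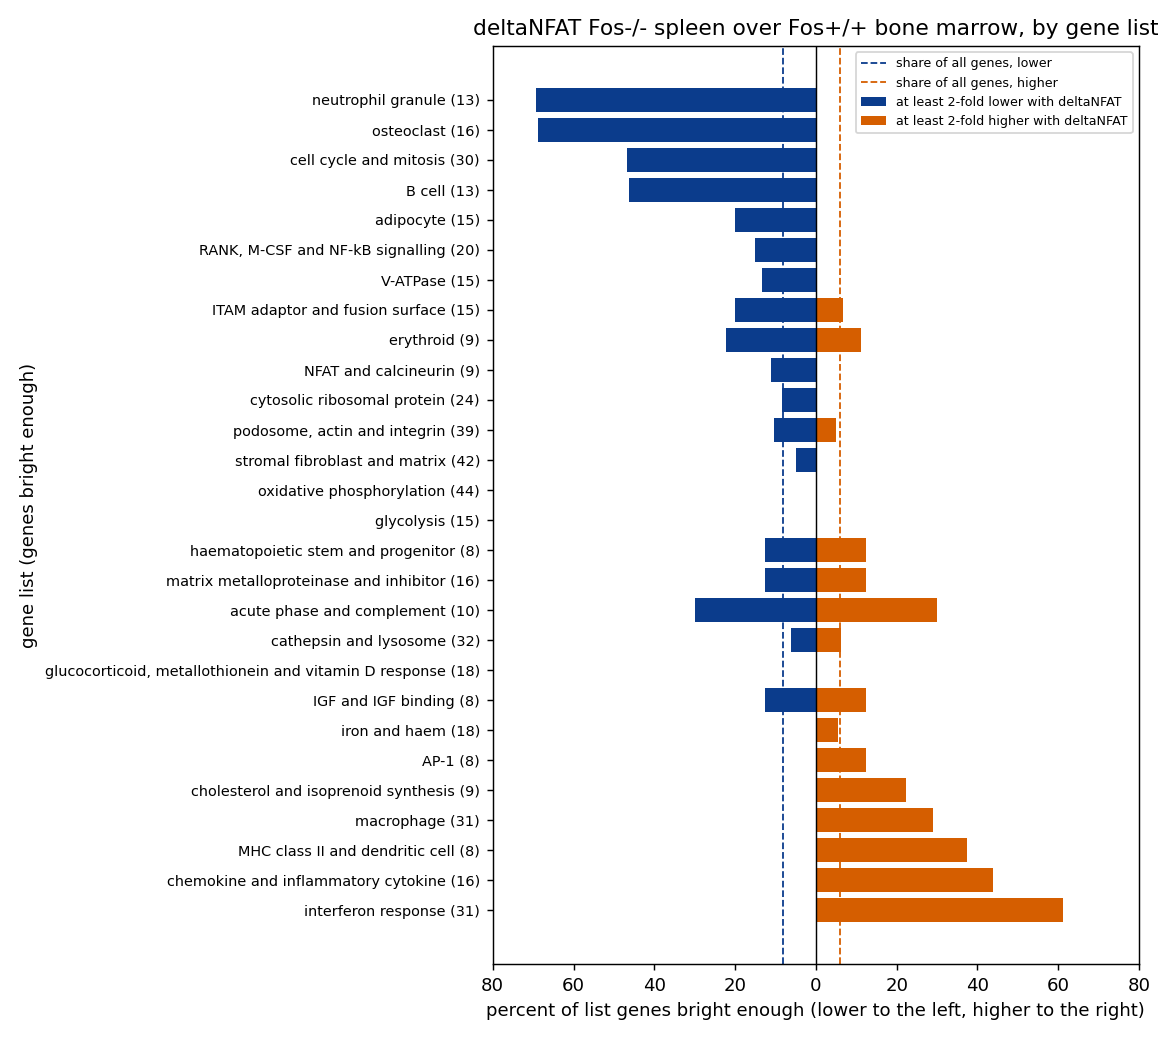
For each gene list with at least 8 genes bright enough, the percentage of those genes at least 2-fold lower (left) or higher (right) with deltaNFAT than in bone marrow, with the number bright enough in brackets. Dashed lines mark the 8.24% lower and 5.99% higher among all genes, and the neutrophil, osteoclast, cell cycle and B cell lists lie furthest to the left and the interferon and chemokine lists furthest to the right.

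Cathepsins and other lysosomal genes counted 2 lower and 2 higher of 32 (6.2% each, near the 8.24% and 5.99% of all genes, median 0.13). Ctsh, a cathepsin of many cell types, read 829 with deltaNFAT, against 362 in bone marrow, and Ctsc, a cathepsin that activates serine proteases, read 393 with deltaNFAT, against 145 in bone marrow, both higher. Lipa, the lysosomal acid lipase, read 15.8 with deltaNFAT, against 99.9 in bone marrow. Ids, a lysosomal sulfatase, read 93.9 with deltaNFAT, against 298 in bone marrow by its brightest probe set and gave a log2 ratio of 0.14 by the next. Podosome, actin and integrin genes counted 4 lower (10.3%) and 2 higher (5.1%) of 39, again near the shares of all genes. Itgb5, an integrin beta chain, read 171 with deltaNFAT, against 45.2 in bone marrow and was higher by its brightest probe set. Its other probe set gave a log2 ratio of -0.25, in the opposite direction. Itga3, a laminin receptor chain, read 95.1 with deltaNFAT, against 352 in bone marrow, and Pstpip1, a cytoskeletal adaptor, read 88.0 with deltaNFAT, against 207 in bone marrow but gave a log2 ratio of -0.13 by its other probe set. Cholesterol synthesis genes counted 2 higher of 9 (22.2%, against 5.99% of all genes), Sqle at 151 with deltaNFAT, against 43.8 in bone marrow and Fdps at 141 with deltaNFAT, against 60.7 in bone marrow. IGF genes counted 1 lower and 1 higher of 8 (12.5% each, against 8.24% and 5.99% of all genes). The lower, Igf2r, read 45.8 with deltaNFAT, -14.5 with GFP and 27.3 in uninfected Fos-/- spleen, against 170.1 in Fos+/+ spleen and 152 in bone marrow. Single members of the other lists were counted in the haematopoietic stem cell list, 1 in each direction of 8 (12.5% each), and in the osteoblast list, 1 lower of 7 (14.3%). The shares of all genes were 8.24% lower and 5.99% higher.

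The 5 arrays together sorted the counted genes by the side on which the pair differed, in patterns chosen after the values were seen, each with gaps of at least 2-fold. Of the 435 lower genes 49 (11.3%) had both Fos+/+ arrays above all 3 Fos-/- arrays. In 54 (12.4%) the bone marrow array alone was high, in 33 (7.6%) both virus arrays were low, and in 28 (6.4%) the deltaNFAT array alone was low. The other 271 (62.3%) met none of these. Of the 316 higher genes 62 (19.6%) had bone marrow alone low, 37 (11.7%) had both virus arrays high, 26 (8.2%) had deltaNFAT alone high and 23 (7.3%) had all 3 Fos-/- arrays above both Fos+/+ arrays. The other 168 (53.2%) met none. Genes meeting more than 1 pattern, 2 lower and 11 higher, were assigned once. Since the arrays of the pair chose the genes, these shares describe them and test nothing.

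Bright examples of these patterns, chosen by intensity after the values were seen, add genes to those above. Pltp, the phospholipid transfer protein, read 175 with deltaNFAT, 255 with GFP and 293 in uninfected Fos-/- spleen, against 674 in Fos+/+ spleen and 733 in bone marrow, high in both Fos+/+ arrays. Nr1h3, the liver X receptor alpha, read 70.2 with deltaNFAT, 80.8 with GFP and 238 in uninfected Fos-/- spleen, against 319.9 in Fos+/+ spleen and 184 in bone marrow, low in both virus arrays. Fastk, a kinase-like mitochondrial protein, read 117 with deltaNFAT, 358 with GFP and 346 in uninfected Fos-/- spleen, against 388 in Fos+/+ spleen and 449 in bone marrow, low with deltaNFAT alone. Among higher genes, Marco, a macrophage scavenger receptor, read 516 with deltaNFAT, 609 with GFP and 761 in uninfected Fos-/- spleen, against 108 in Fos+/+ spleen and 223 in bone marrow, high in all 3 Fos-/- arrays. Ephx1, the microsomal epoxide hydrolase, read 517 with deltaNFAT, 551 with GFP and 723 in uninfected Fos-/- spleen, against 409 in Fos+/+ spleen and 152 in bone marrow, low in bone marrow alone.

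**Figure D5:**
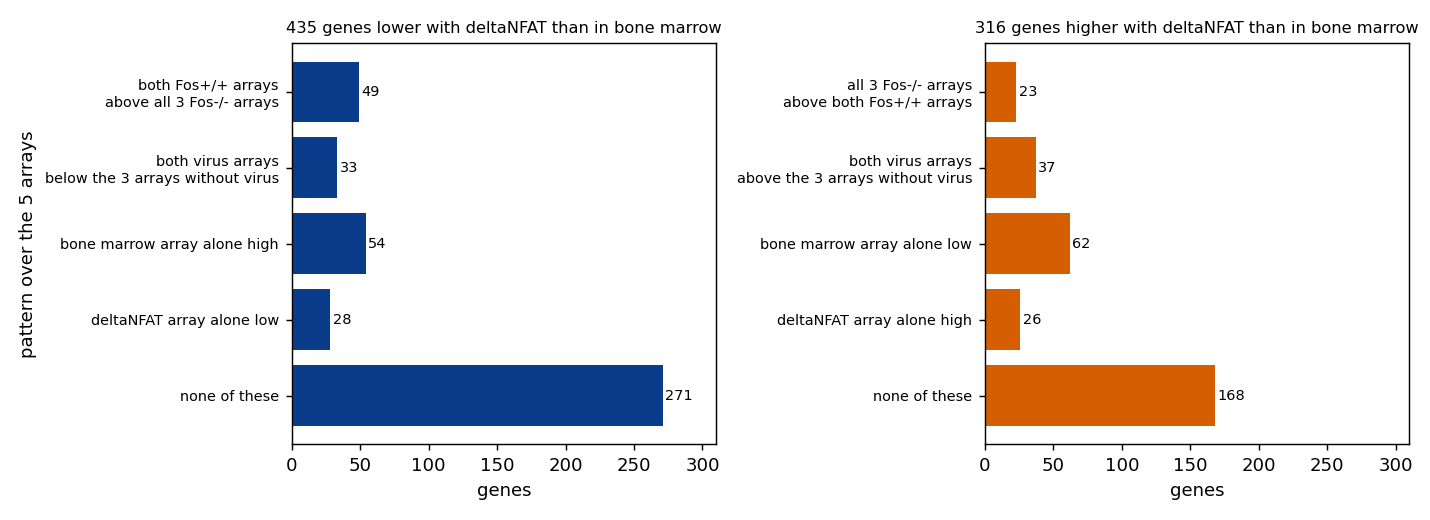
Number of genes in each pattern over the 5 arrays, for the 435 genes lower (left) and the 316 genes higher (right) with deltaNFAT than in bone marrow. Bars start at 0, and the largest bar on each side, 271 and 168 genes, holds the genes that met no pattern.

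A pair that shares no array with this one, uninfected Fos-/- spleen over Fos+/+ spleen, gave a view of genotype within 1 tissue. In it 6.5% of 4985 bright genes were lower and 6.4% higher. Of 4741 genes bright enough in both ratios 331 were lower with deltaNFAT and 256 in the spleen pair, and 80 were lower in both, which is 24.2% of the deltaNFAT list and 31.2% of the spleen list. Of all 4741 genes the spleen pair counted 5.4% as lower and the deltaNFAT pair 7.0%. In the opposite direction 41 of the 331 (12.4%) were higher in Fos-/- spleen. Of higher genes 244 and 273 were counted, and 54 were shared, 22.1% of the deltaNFAT list and 19.8% of the spleen list, beside 5.8% of all genes higher in the spleen pair and 5.1% in the deltaNFAT pair. In the opposite direction 21 of the 244 (8.6%) were lower in Fos-/- spleen. Of 15 bright osteoclast genes 13 were lower in Fos-/- spleen, as were 7 of 15 V-ATPase genes and 14 of 34 cell cycle genes. The neutrophil list went the other way, with 0 lower and 5 of 11 higher in Fos-/- spleen. Of 18 bright interferon genes 2 were lower and 1 was higher in that pair, which had no virus.

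The counted genes differed in how well they were measured. Of the 435 lower genes 308 were above the floor in both arrays and 127 were at or under it with deltaNFAT, the median fold was 2.43, 51 reached 4-fold and 5 reached 8-fold. Of the 316 higher genes 193 were above the floor in both, the median fold was 2.68, 54 reached 4-fold and 18 reached 8-fold. The brighter array read under 80 in 188 of the lower and 131 of the higher genes, and 500 or more in 12 and 20. At the 2-fold line Mstn was just inside (-8.0 with deltaNFAT, against 40 in bone marrow) and Fgf4 just outside (96.1 with deltaNFAT, against 192 in bone marrow) on the lower side. On the higher side Cpq (131 with deltaNFAT, against 65.5 in bone marrow) was just inside and Cdh13 (168 with deltaNFAT, against 84.1 in bone marrow) just outside. Between 1.8-fold and 2-fold lay 125 genes on the lower side and 74 on the higher, and between 2-fold and 2.2-fold 117 and 60, so many genes stood close to the line.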

How the data were processed

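Each array came as a column of linear intensities, 1 per probe set, as the authors deposited them. The sources used here do not give how these were made from the scans. The deposited intensities show a scaling (the mean without the extreme 2% is 100.1 in every array) and a subtraction (20.3 to 22.4% of an array is at or below 0). What was subtracted is not given. Values were used as deposited, floored at 20 and turned into log2 ratios of deltaNFAT over bone marrow with Python 3.11.15, pandas 2.3.3 and numpy 2.4.6. All columns matched a sample title. Names came from the platform annotation, in which 10855 probe sets have 1 symbol, 396 several and 1237 none. By gene identifier 10817 of the 10833 members matched RefSeq (GRCm38.p6) and 0 symbols changed. The brightest probe set over the 5 arrays stood for a gene. The number of arrays limits the precision, and with 1 array a group no test, p-value or SD was possible. The procedure was tested on simulated data.

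Members and lists were chosen with earlier results of these data known. The naming rule selects 193 genes, which are Fos, Nfatc1, every osteoclast gene, the 15 largest folds each way (both arrays above the floor, brighter array at least 80), the 8 brightest genes each way with the dimmer array at the floor, and from every other list the 5 members at most that differ by the largest log2 ratio at the same brightness. The text names all of these that were lower or higher and part of the 90 others. Defining markers, genes at the 2-fold line and members of lists with few counted genes are also named. Any other named gene, the array patterns, the interferon motif and its windows were chosen after their values were seen. Alternatives were 2 other scalings, 3 other floors, 2 other treatments of probe sets and a 3-fold threshold.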

Additional observations from a re-analysis of the deposited data

How the results depend on the processing

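The number of probe sets at least 2-fold lower was 293 with a floor of 40, 86 with a floor of 100 and 151 at 3-fold, and the number of probe sets at least 2-fold higher was 606 with a floor of 10, 212 with 40, 69 with 100 and 137 at 3-fold. The share of lower genes also lower in the spleen pair was 31.4% and 41.5% with floors of 40 and 100. Cell cycle genes lower numbered 9 with median scaling and 3 with a floor of 100, which also left 2 chemokine and 5 interferon genes higher. The median log2 ratio of the interferon list was 0.67 to 1.54 over the floors, and that of the cell cycle list was -0.17 with a floor of 100. Fewer genes are bright enough under the higher floors. Ids turned to a log2 ratio of 0.14 when probe sets with a suffix letter were left out. Apart from the floors, 42 of the 60 lower and 40 of the 43 higher genes that the naming rule selects stayed past 2-fold in every setting run on single genes, and with the floors 16 and 23 did. The count of genes past the line differed more than 1.5 times with a floor of 40 (247 lower, 185 higher), of 100 (80 and 63) and at 3-fold (129 and 113), and was 619 and 470 with a floor of 10. Osteoclast genes lower ranged from 9 to 11 over the scalings, floors and treatments of probe sets. At 3-fold, a setting added for the lists after the data were seen, 4 osteoclast, 3 cell cycle and 2 neutrophil genes were lower and 4 macrophage, 5 chemokine and 13 interferon genes higher. No paired analysis was possible because each group had 1 array. The planned counts of lower genes by their level in the Fos+/+ spleen and GFP arrays were not run, since those ratios share an array with the one counted. Signal near the floor limits what the dim genes show.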
